A study of Rattus norvegicus with 2 samples.

Results

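A stretch of rat chromosome 4 that runs from Pus7 to Rad51ap1 was examined gene by gene in cultured myometrial progenitor cells, precursor cells of the smooth muscle wall of the uterus. The stretch covers 937 consecutive rows of the authors' deposited expression table, in the order in which the table lists them. Of these rows, 283 were listed at 0 in both libraries, 112 had some reads but a mean under 20 normalised reads, and 542 reached this minimum. These 542 genes are the members described here, out of 11212 genes in the whole table that reach it. The stretch was chosen because the ratios between the libraries were already known to lie low along it, so its low median and its counts of lower and higher genes are a description and carry no test.

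The study sequenced RNA from 2 groups of rat cells, labelled VEH and DES. In work on endocrine disruptors these abbreviations usually mean vehicle and diethylstilbestrol, a synthetic estrogen. Each group was a single library made from the pooled cells of 5 animals, grown in culture for 1 to 3 passages. The labels do not give strain, age, dose or time of exposure, and the culture step and the pooling are shared by both groups. The question is which genes differ in expression after the exposure.

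The deposited table does not say which group stands above the line in its fold change, and its values cannot settle this. The libraries are therefore named by their place in the ratio, as the numerator library and the denominator library, and "higher" or "lower" always refers to the numerator library. Whether a direction is that of the exposure is therefore unknown. With 1 library per group no difference has a replicate check, and intervals, all at 95%, cover counting error only. In pooled cells, fewer cells of a type and less RNA per cell cannot be told apart.

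Genes along a mammalian chromosome are mostly unrelated in function and are read from their own promoters, so neighbours usually differ in how strongly and in which tissues they are expressed. Exceptions are families made by local duplication, such as the Hox clusters, whose neighbouring genes set position along the body and along the reproductive tract, and pairs of genes that start back to back. Pus7, at the start of the stretch, encodes a pseudouridine synthase that modifies RNA, and Rad51ap1, at its end, encodes a protein of homologous recombination, a form of DNA repair. Between them lie genes of interest in the myometrium, among them Oxtr, the receptor for the contraction hormone oxytocin, Cav1, Cav2 and Cav3, which form the caveolae of muscle membranes, and Actg2, the smooth muscle gamma actin.

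Position was checked against RefSeq's GRCr8 annotation by gene symbol, for names and order only, since the table was made on older builds. RefSeq placed 527 members (97.2%) on chromosome 4 and 1, Pigy, on chromosome 8, and 14 had no match. Of 896 pairs of neighbouring matched rows, 843 (94.1%) stood in ascending RefSeq order. The order in the table is therefore close to, but not the same as, the order on the chromosome. Just inside the minimum lay Cml2, Cyp26b1 and Cml1 with means of 21.2, 22.6 and 22.6 normalised reads. Just outside it lay RGD1560028 and Atp6v0a4 with 18.8 and 18.9.

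The 2 libraries held 106599579 reads (numerator) and 104793348 reads (denominator) in the listed genes, so depth differed little. All 9 smooth muscle markers were detected, with 1916600 reads (numerator) and 1156404 reads (denominator). All 7 mesenchymal progenitor markers found in the table were detected too, with 176105 and 265679 reads. Of markers of other cell types, the 8 endothelial genes summed to 685 and 8117 reads, with Kdr and Emcn at 0, and the 7 pericyte genes to 82118 and 391525, with none at 0. The 6 epithelial genes summed to 3042 and 1557 reads, with Cdh1 at 0, and the 6 macrophage genes to 298 and 396, with Ptprc, Aif1 and Adgre1 at 0. Single markers of some types went opposite ways. Among mesenchymal progenitor genes Nt5e had 42397 and 6613 reads, Vcam1 4327 and 13, Cd44 48872 and 33488 and Cd34 54 and 3. Against these, Thy1 had 72779 and 202443 reads, Eng 3431 and 14168 and Pdgfra 4245 and 8951. Among endothelial genes Tek had 553 and 67 reads, while Cdh5 had 2 and 2166 and Esam 73 and 5582. Among pericyte genes Abcc9 had 38 and 168646 reads and Kcnj8 6 and 5457, both on chromosome 4 after the stretch, while Cspg4 had 31833 and 28088 and Rgs5 22 and 0. Among macrophage genes Cd68 had 271 and 54 reads, while Csf1r had 22 and 270 and Lyz2 5 and 72. The part of these differences in the ratios of the members was not tested.

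Promoter sequences show what stands at the edges of the stretch and at 2 neighbourhoods described later. The first pair marks the edges. Inmt and Aqp1 are table neighbours with opposite ratios, and Cav3 and Oxtr are table neighbours that were both read in the numerator library alone. Each sequence is the RefSeq (GRCr8) window from 250 bases before to 50 bases after the gene's start, 5′ to 3′ on the gene's own strand. The windows are chr4:12252433-12252732 on the plus strand for Pus7, chr4:161458510-161458809 on the minus strand for Rad51ap1, chr4:85652706-85653005 on the minus strand for Inmt, chr4:85812534-85812833 on the plus strand for Aqp1, chr4:147137743-147138042 on the plus strand for Cav3 and chr4:147170450-147170749 on the minus strand for Oxtr. Capitals mark matches, on either strand, to any of 6 motifs: the TATA box (TATAAA), the CCAAT box (CCAAT), the cell cycle homology region (TTTGAA), the E2F site (TTTCGCGC), the estrogen response element (GGTCA, any 3 bases, then TGACC) and the E-box (CACGTG).
Pus7: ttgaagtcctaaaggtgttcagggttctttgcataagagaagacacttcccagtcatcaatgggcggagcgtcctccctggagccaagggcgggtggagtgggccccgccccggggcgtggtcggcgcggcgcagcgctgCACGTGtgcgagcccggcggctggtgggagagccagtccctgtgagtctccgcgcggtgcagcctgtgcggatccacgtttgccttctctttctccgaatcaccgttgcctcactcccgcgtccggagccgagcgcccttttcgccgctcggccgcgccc
Rad51ap1: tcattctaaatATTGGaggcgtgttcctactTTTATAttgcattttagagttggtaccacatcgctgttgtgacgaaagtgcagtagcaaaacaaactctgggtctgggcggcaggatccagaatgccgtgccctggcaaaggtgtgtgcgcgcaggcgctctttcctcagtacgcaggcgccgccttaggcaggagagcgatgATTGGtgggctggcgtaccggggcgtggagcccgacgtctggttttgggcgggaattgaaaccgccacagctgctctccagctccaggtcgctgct
Inmt: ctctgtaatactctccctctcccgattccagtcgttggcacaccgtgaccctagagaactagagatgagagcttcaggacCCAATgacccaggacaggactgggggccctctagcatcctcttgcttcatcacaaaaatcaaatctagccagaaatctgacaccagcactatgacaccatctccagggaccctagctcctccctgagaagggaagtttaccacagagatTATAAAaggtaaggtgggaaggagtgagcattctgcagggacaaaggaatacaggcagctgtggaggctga
Aqp1: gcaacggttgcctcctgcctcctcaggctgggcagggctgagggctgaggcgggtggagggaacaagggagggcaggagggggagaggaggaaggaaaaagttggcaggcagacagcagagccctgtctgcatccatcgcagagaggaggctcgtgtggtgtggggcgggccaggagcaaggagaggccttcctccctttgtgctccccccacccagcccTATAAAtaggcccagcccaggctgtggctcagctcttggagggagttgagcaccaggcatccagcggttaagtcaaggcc
Cav3: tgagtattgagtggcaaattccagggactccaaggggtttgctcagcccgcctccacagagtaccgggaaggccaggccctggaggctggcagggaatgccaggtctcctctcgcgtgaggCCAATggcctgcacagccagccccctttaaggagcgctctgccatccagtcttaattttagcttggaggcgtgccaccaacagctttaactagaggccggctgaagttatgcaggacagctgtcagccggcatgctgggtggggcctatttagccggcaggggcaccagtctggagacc
Oxtr: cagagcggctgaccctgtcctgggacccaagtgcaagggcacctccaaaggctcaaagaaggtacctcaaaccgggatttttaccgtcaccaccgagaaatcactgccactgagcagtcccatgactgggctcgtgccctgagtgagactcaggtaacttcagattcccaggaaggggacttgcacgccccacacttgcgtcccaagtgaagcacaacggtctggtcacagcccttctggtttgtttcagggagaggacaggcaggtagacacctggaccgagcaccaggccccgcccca

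The Pus7 window holds an E-box and the Rad51ap1 window a TATA box and a CCAAT box on each side of it, all 3 read on the opposite strand. Inmt and Aqp1 each have a TATA box, and Inmt has a CCAAT box as well. Cav3 has a CCAAT box, and none of the 6 motifs is in the Oxtr window. No matches overlap in these windows. A match is a description of letters, not a binding site.

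Over the 455 members with a promoter in RefSeq's table, 36 (7.91%) held a TATA box, against 14.3% of all 27457 promoters, and 177 (38.9%) held a CCAAT box, against 37.7%. TTTGAA was in 9.45% of members and 18.1% of all promoters. The E-box was in 31 members (6.81%), close to the 6.65% of all promoters. It was in 7 of the 36 members (19.4%) that lay 4-fold or more above the members' median. Of the 28 as far below, 3 (10.7%) held it. The full estrogen response element was in 7 of all promoters (0.0255%) and in 0 members, and the E2F site in 1 member (0.22%) against 0.342% of all promoters. These shares are given without a test. The sets are also unlike: members had to reach the minimum mean, while the set of all promoters has no such limit. Promoters of expressed genes outside the stretch were not compared. The lower shares of TATA box and TTTGAA therefore cannot be tied to the stretch.

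Most members were lower in the numerator library, and the usual difference was small. The median log2 ratio of the 542 members was -0.38, which is a ratio of 0.769, with quartiles of -0.95 and 0.22. The other 10670 genes had a median of 0.02, so the members' median lay 0.40 lower on the log2 scale. Log2 ratios use a pseudocount of 1 normalised read. Below 0 lay 362 members (66.8%), against 48.7% of the other genes and 49.6% of all genes.

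Counted as lower were members at least 2-fold down with a counting interval of the ratio that excludes 1. There were 120 of these (22.1%), where 12.7% of all genes passed the same rule. As higher were counted 55 members (10.1%), where 13.9% of all genes passed. Within 2-fold of the members' own median lay 385 members (71%), and 73.5% of the other genes lay as near to theirs. The spread of the members was thus similar to that of other genes, with an interquartile range of 1.17 against 1.03, about a lower centre.

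Members nearest the median, among those with a mean of at least 1000, show the usual size of the difference. Wnk1, a kinase that controls ion transport, was read 35026 times in the numerator and 44945 times in the denominator library, and pairs of reads keep this order from here on. Htra2, a mitochondrial protease, had 2917 and 3723 reads. Cacna1c, the pore of the L-type calcium channel that lets calcium into smooth muscle, had 4969 and 6350 reads, and Gpnmb, a membrane glycoprotein, 16622 and 21256. These 4 genes were about 1.3-fold lower, Wnk1 1.31-fold with an interval of 1.29 to 1.32.

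Summed over the members, the numerator library had 7243056 reads and the denominator library 11733531, a ratio of normalised sums of 0.606. A pair of genes carried most of this gap. Col1a2, encoding a chain of type I collagen, had 2047487 and 4926343 reads (2.45-fold lower). A2m, encoding the protease inhibitor alpha-2-macroglobulin, had 3453 and 1273403 (376-fold lower, interval 363 to 388). Without Col1a2 the ratio of sums was 0.75, and without both it was 0.921. Among the other 3 members with the highest means the libraries differed little or the other way. Calu, a calcium-binding protein of the endoplasmic reticulum, had 571767 and 607732 reads, Cald1, the actin-binding caldesmon, 242733 and 231029, and Actg2 237594 and 110639 (2.11-fold higher).

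**Figure D1:**
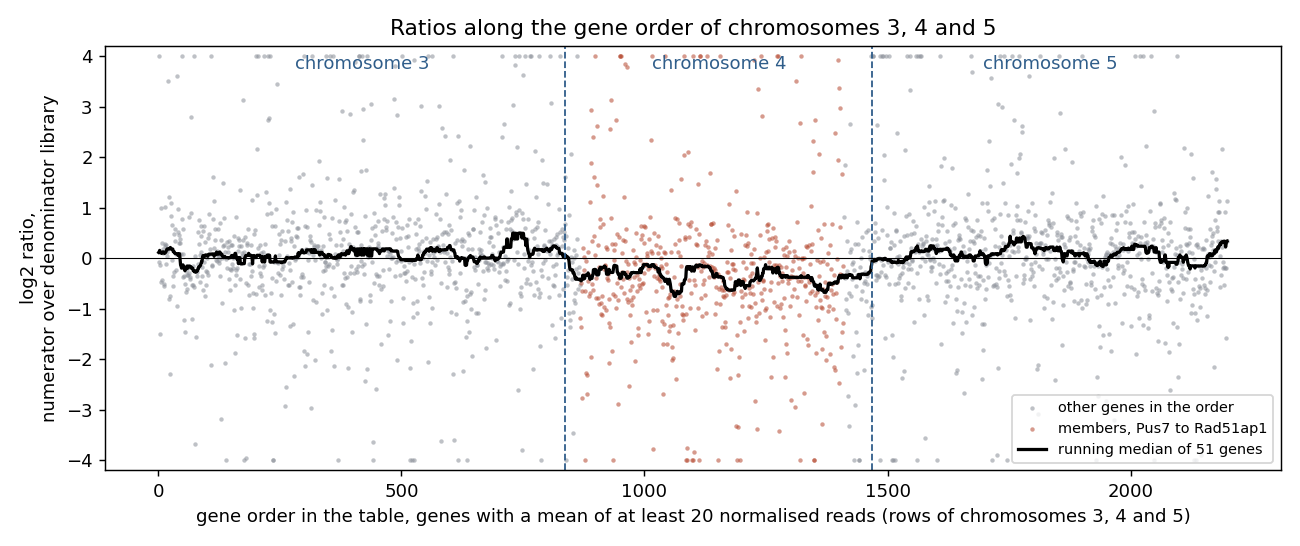
Log2 ratio of each gene that reaches the minimum mean of 20, in table order over chromosomes 3, 4 and 5 (points, limited to 4 on either side), with the running median of 51 genes (line) and dashed lines at the chromosome borders. The running median lies near 0 on chromosomes 3 and 5 and below 0 along chromosome 4, also in the grey genes before Pus7 and after Rad51ap1.

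The low ratios did not begin at Pus7 or end at Rad51ap1. The 30 chromosome 4 genes before Pus7 had a median of -0.34, with 21 below 0. The 59 chromosome 4 genes after Rad51ap1 had a median of -0.35, with 43 below 0. Over all 631 genes of the chromosome the median was -0.38.

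At the left edge the first 5 members were all lower in the numerator library. Pus7 had 1742 and 3903 reads (2.28-fold lower, interval 2.16 to 2.42). Srpk2, a kinase of splicing factors, had 8916 and 12331 reads, and Orc5, a subunit of the origin recognition complex, 2434 and 3764. Kmt2e, a chromatin regulator of the histone methyltransferase family, had 12208 and 30889 reads (2.58-fold lower), and Reln, the matrix glycoprotein reelin, 3058 and 20586 (6.85-fold lower). The 5 genes just before them were lower as well: Nupl2, Klhl7, Fam126a, LOC100909675 and Tomm7, a subunit of the mitochondrial import pore, had log2 ratios of -0.61, -0.29, -0.18, -0.42 and -0.53. Ratios were thus below 0 on both sides of the edge, and 3 of the first 5 members but none of these 5 neighbours reached 2-fold.

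At the right edge the last 5 members were mixed. Tspan9, a tetraspanin, had 7552 and 25010 reads (3.37-fold lower), and Ccnd2, the G1 cyclin D2, 6646 and 18017 (2.76-fold lower). Tigar, a phosphatase that restrains glycolysis, had 1698 and 523 reads (3.19-fold higher, interval 2.89 to 3.52). RGD1311164 had 2141 and 2337 reads. Rad51ap1 had 326 and 782 reads (2.44-fold lower, interval 2.14 to 2.79). Of the 5 genes after them, Akap3 and Bcl2l14 had log2 ratios of 0.81 and 1.84, while the respiratory subunit Ndufa9, the Wnt co-receptor Lrp6 and Mansc1 had -0.34, -0.39 and -1.04. Akap3 rests on 33 and 18 reads, and its interval includes 1.

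A fit of 3 levels over chromosome 4 alone, by least absolute deviations with at least 20 genes per level, was meant to find where the shift starts and ends. It found no outer edge. It set apart a run of 24 genes inside the stretch, from Ephb6 to RGD1559747, with a median of -1.03, between 198 genes at -0.28 and 409 genes at -0.38. When chromosomes 3, 4 and 5 were fitted together, an analysis added after the data had been seen, the low level ran from En2 to Klhl42. It held 623 genes with a median of -0.38, of which 422 were below 0, between 838 genes and 737 genes whose medians were both 0.09. Of chromosome 4 genes, 1 lay before this level (Insig1, log2 ratio 0.43) and 7 lay after it. The low level thus covered nearly the whole chromosome, and the stretch from Pus7 to Rad51ap1 is its inner part.

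At the left border of that level, Psma7, Fam217b, Ppp1r3d, Sycp2 and Insig1 had log2 ratios of 0.36, 0.52, 0.67, 1.61 and 0.43, all above 0. From the border on, En2, Rbm33, Rnf32, Lmbr1 and Dnajb6 had -9.37, -0.38, -0.54, 0.19 and -0.24. En2, a homeobox gene, had 0 and 653 reads. At the right border, Stk38l, Arntl2, Ppfibp1, Mrps35 and Klhl42 had -0.51, -0.35, 0.56, -1.13 and -0.28. The genes after it, Pthlh, Ccdc91, Ergic2, Rps4y2 and Mettl20, had 0.13, 0.04, -0.02, 7.58 and -0.97, and the last of the chromosome, Amn1 and Bicd1, had -1.19 and -0.92. The last 3 genes were thus low beyond the fitted border. Single genes on either side cross over, so the borders are seen in the medians rather than in the neighbouring genes.

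The place of the inner run depended on the settings. With a minimum mean of 100, or with the authors' deposited fold changes, the fit chose Kcmf1 to LOC500227 instead. Least squares chose Tmem168 to Fam3c.

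**Figure D2:**
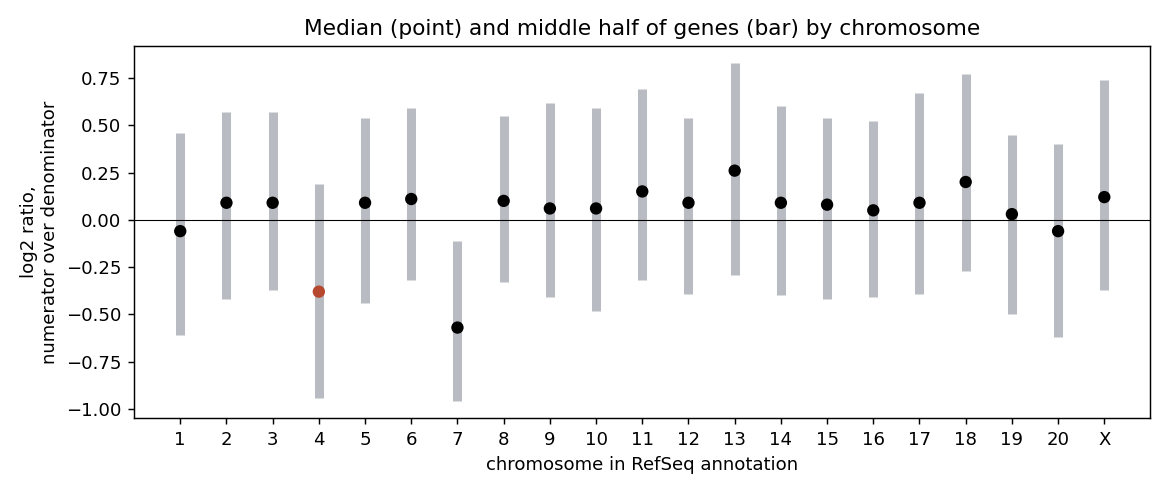
Median log2 ratio (point) and interquartile range (bar) of the genes that RefSeq places on each chromosome, among genes that reach the minimum mean of 20. Chromosome 4 (orange, -0.38) and chromosome 7 (-0.57) lie apart from the other 19 chromosomes, whose medians run from -0.06 to 0.26.

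Chromosome 4 was not alone in lying low. Medians of the 19 chromosomes other than 4 and 7 ran from -0.06 to 0.26, and chromosome 7 had -0.57. The chromosome 7 stretch from Prim1 to Hoxc8 held 696 genes with a median of -0.56, of which 79.2% were below 0. A chromosome 1 stretch from Il4r to Cdca5 held 273 genes with a median of -0.63 and 81.3% below 0. Both were also chosen for their low ratios. The members differed from these in a wider interquartile range, 1.17 against 0.85 and 0.92, and in a smaller share below 0. No test of these differences was made, since all 3 stretches were picked on the values compared.

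Low ratios were found all along the stretch. Each of the 492 windows of 51 consecutive members had a median below 0. The lowest, from Casp2 to Chn2, had -0.76 with 34 of its members below 0. The highest, from Snd1 to Hipk2, had -0.13 with 31 below 0. On the chromosomes other than 4 and 7, 30.8% of 8892 such windows had a median below 0. At or under the members' median lay 299 (3.36%), 281 of them touching the chromosome 1 stretch. Of the 8569 windows that did not touch it, 18 (0.21%) lay as low. The lowest of these, on chromosome 20 from Col11a2 to Sapcd1, had -0.64. Windows overlap, so these counts describe the order and are not separate observations.

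In 10 consecutive blocks of 54 or 55 members the medians were -0.34, -0.40, -0.13, -0.62, -0.15, -0.57, -0.46, -0.25, -0.38 and -0.51. The block from Rbm28 to Ndufb2 and that from Tril to Vamp8 came nearest to 0, with 33 and 31 members below 0. The block from Mrps33 to Creb5 was lowest by its median and held the most members at least 2-fold lower, 18. That from Ggcx to Cml1 had the most members below 0 (44). The blocks from Rbm28 to Ndufb2 and from Ccdc174 to Timp4 held the fewest at least 2-fold higher, 2 each.

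The run of 24 genes from Ephb6 to RGD1559747 lies in the block from Mrps33 to Creb5. Below 0 were 19 of its genes, 12 were at least 2-fold lower and 2, the olfactory receptor Olr816 and the proton pump subunit Atp6v0e2, at least 2-fold higher. Casp2, a caspase, had 894 and 2855 reads (3.25-fold lower). Rarres2, which encodes the adipokine chemerin, had 825 and 2745 (3.39-fold lower). The run holds 8 genes with Zfp names, which encode zinc finger proteins, and all were below 0. Of these, Zfp786, Zfp398, Zfp956, Zfp467 and Zfp775 were 3.25-fold, 2.2-fold, 2.74-fold, 2.53-fold and 3.96-fold lower, while Zfp282, Zfp777 and Zfp746 had log2 ratios of -0.80, -0.76 and -0.70. Repin1, also a zinc finger gene, was 4.04-fold lower with 345 and 1368 reads. These genes were picked out after their values had been seen. Zinc finger genes of 1 cluster resemble each other, and reads of 36 bp may be shared between them. Zyx, encoding the focal adhesion protein zyxin, stood near an even ratio in the same run, with 32757 and 29798 reads.

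The genes before it, Ndufb2, Mrps33, Agk, RGD1563986 and Ssbp1, had log2 ratios of 0.22, -0.46, -0.17, 0.00 and -0.19. Its first genes, Ephb6, Gstk1, Casp2, Fam131b and Zyx, had -1.26, -0.58, -1.70, -2.68 and 0.11. Its last, Lrrc61, Rarres2, Repin1, Zfp775 and RGD1559747, had 0.13, -1.76, -2.01, -1.98 and -1.33, and those after it, Gpnmb, Malsu1, Tra2a, Ccdc126 and Fam221a, had -0.38, -0.66, 0.79, 0.28 and -0.96. On both sides the genes outside the run lay within 2-fold of an even ratio.

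**Figure D3:**
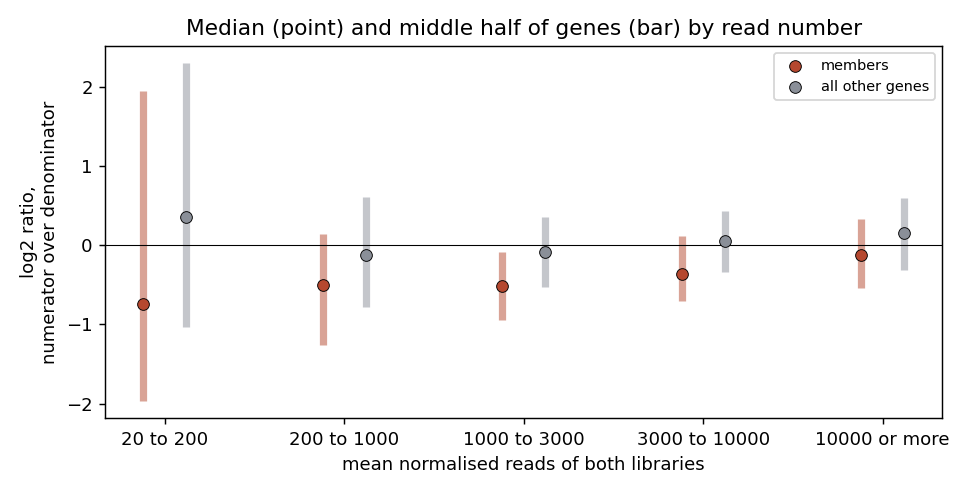
Median log2 ratio (point) and interquartile range (bar) of members and of all other genes, in 5 classes of mean normalised reads of both libraries. In each class the members' median lies under that of the other genes, by between 0.28 and 1.10.

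The shift was present at every read level. Among 131 members with means of 1000 to 3000 normalised reads the median was -0.51, against -0.08 for other genes in that class, and 105 (80.2%) were below 0. Among the 134 with means of 3000 to 10000 it was -0.37 against 0.05. Among the 123 with 10000 or more it was -0.13 against 0.15. The 73 members with means of 20 to 200 had -0.74 against 0.35, and the 81 from 200 to 1000 had -0.50 against -0.12. The middle 3 classes thus stood 0.38 to 0.43 under other genes, the highest 0.28 and the lowest 1.10. The lowest class is also the most scattered, with quartiles of -1.97 and 1.95.

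Members that depart from the shift were taken as those at least 4-fold away from the members' median with a counting interval that excludes it. Above it lay 44 members (8.12%), where 7.41% of the other genes lay as far above their own median. Below it lay 33 (6.09%), where 5.04% of the others did. Both shares are near the background. Of the members with means under 200, 42.5% departed, and of those from 3000 to 10000, 2.99%. Departing shares of other genes in these classes are not given. Other genes with means of 20 to 200 were widely scattered too, with quartiles of -1.03 and 2.30. With the authors' deposited fold changes, which are shrunken towards 0, 24 members lay above and 10 below. With every gene above 0 counted, 70 lay above. Shares of other genes under these settings are not given, so these counts have no background beside them.

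**Figure D4:**
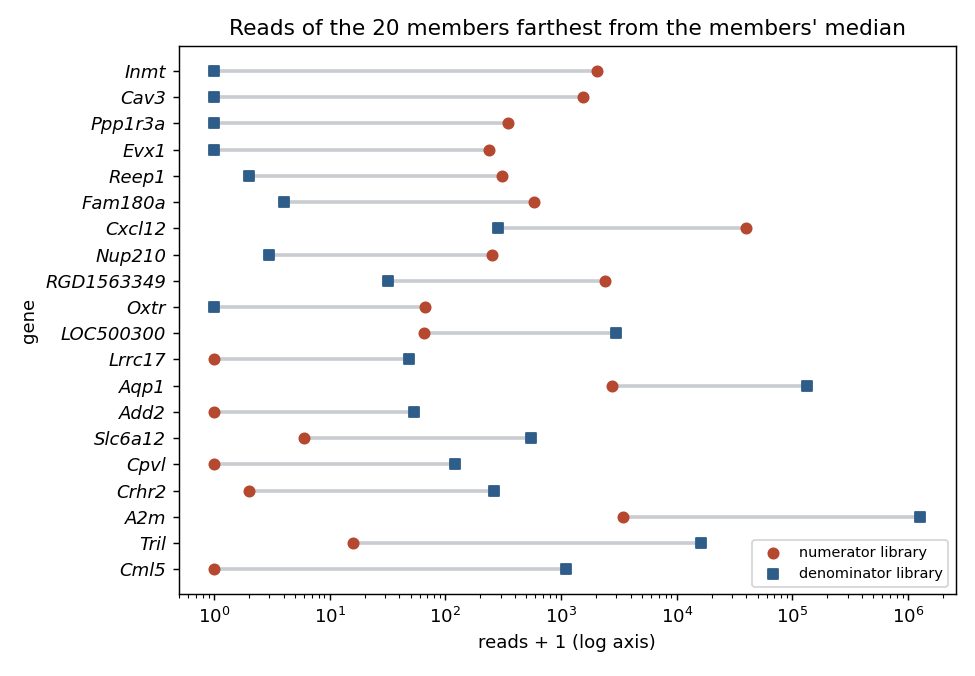
Reads plus 1 in the numerator library (circles) and the denominator library (squares), on a log axis, for the 10 members farthest above and the 10 farthest below the members' median. Inmt, Cav3, Ppp1r3a, Evx1 and Oxtr have 0 reads in the denominator library, and Lrrc17, Add2, Cpvl and Cml5 have 0 in the numerator library.

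The 10 members farthest below the median included receptors, transporters and secreted proteins. Tril, a leucine-rich repeat protein that works with Toll-like receptors, had 15 and 16250 reads, which is 1103-fold lower (interval 669 to 1971). Aqp1, the water channel aquaporin-1, had 2754 and 133762 (49.5-fold lower, interval 47.6 to 51.4). Both genes were well read in the denominator library; the 15 reads of Tril in the other leave its fold the wider interval. Crhr2, a receptor of the corticotropin-releasing hormone family, had 1 and 262 reads (267-fold lower, interval 47.5 to 10577). Slc6a12, the betaine and GABA transporter, had 5 and 546 (111-fold lower), and LOC500300 64 and 3000 (47.7-fold lower). A2m, given above, belongs to this group too.

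The numerator library had 0 reads of 4 members. Cml5 had 1103 in the other, which makes it at least 374-fold lower against a floor of 3 reads. It belongs to a family of close relatives in neighbouring rows, between which reads may be divided. Cml2 had 3 and 39 reads and Cml1 7 and 38. Cpvl, a carboxypeptidase, had 0 and 120 reads (at least 40.7-fold lower), Add2, the membrane skeleton protein beta-adducin, 0 and 53 (at least 18-fold) and Lrrc17 0 and 47 (at least 16-fold).

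The 10 members farthest above the median included genes known from muscle and from development. Inmt, which encodes an indolethylamine methyltransferase, had 2052 and 0 reads (at least 672-fold higher). Cav3, the caveolin of muscle, had 1545 and 0 (at least 506-fold). Ppp1r3a, which tethers a phosphatase to glycogen in muscle, had 344 and 0 (at least 113-fold), and the homeobox gene Evx1, next to the Hoxa cluster, 236 and 0 (at least 77.3-fold). Oxtr had 66 and 0 reads (at least 21.6-fold). These 5 genes were read in the numerator library alone, and 7 members were so in all, among them Olr816 with 49 reads.

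Further high members were read in both libraries. Cxcl12, a chemokine that attracts progenitor cells and leukocytes, had 39408 and 284 reads (136-fold higher, interval 121 to 154). Reep1, which shapes the endoplasmic reticulum, had 309 and 1 (303-fold, interval 54.1 to 12025). Fam180a had 577 and 3 (189-fold), Nup210, a nuclear pore membrane protein, 251 and 2 (123-fold) and RGD1563349 2404 and 31 (76.2-fold). Cxcl12 is the best read of these, and its interval is the narrowest.

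Departing members often had another departing member close by. Distances here are counted in genes that reach the minimum mean, not in table rows. Of the 44 above the median, 25 (56.8%) had another of them within 2 genes, against 41.1% among other genes that departed upward. A member below the median stood within 2 genes of 15 of the 44 (34.1%), against 13.7% among other genes. Of the 33 below, 13 (39.4%) had a member above within 2 genes, against 19.5%, and 10 (30.3%) another below, against 29.2%. No test was made of these shares, since the rule that drew the stretch used the same ratios.

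Named neighbourhoods show both patterns. Cav3 and Oxtr stand in adjacent rows and were both read in the numerator library alone. Ppp1r3a, Foxp2 and Cttnbp2 lie within 5 rows; Foxp2, a forkhead factor, had 620 and 16 reads (38.1-fold higher), and Cttnbp2, a cortactin-binding protein, 253 and 4 (62.1-fold). Tril, Cpvl and Chn2 are consecutive and all low, Chn2, a Rac GTPase-activating protein, with 24 and 331 reads (14-fold lower). In the rows from Crhr2 to Adcyap1r1 the direction switches: Crhr2 was low, Inmt high, Aqp1 low and Adcyap1r1, a receptor for the peptide PACAP, low with 13 and 196 reads (15.4-fold). These groups were picked out after their values had been seen.

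Gene to gene, neighbouring members were little alike. The median difference between neighbouring members was 0.87 on the log2 scale, against 0.80 for other neighbouring genes, and 44.5% of neighbouring members differed by more than 1. Spearman's rho between neighbours was 0.08 over 541 pairs of members and 0.16 over 10644 pairs of other genes, each gene being used in both of its pairs. Among 17 pairs of members that start back to back within 1000 bases, both genes were below 0 in 10 (58.8%) and both above in 3. Among 415 such pairs elsewhere both were below 0 in 22.7%. The stretch was chosen for its low ratios, which by itself raises its share of pairs with both genes below 0. The median difference within a pair was 0.73 in members and 0.45 elsewhere. Rad51ap1 and RGD1311164 form such a pair, with log2 ratios of -1.29 and -0.15, as do Usp5 and Cdca3, with 0.68 and -1.46, and Hoxa11 and RGD1564419, with -1.23 and -1.12. Without knowledge of strand in the counting, reads of overlapping transcripts cannot be told apart.

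Roles were read from 16 lists, chosen with earlier results of these data known. The lists are broad, and some hold genes of other roles. Examples are the splicing factor Tra2a under protein turnover and the tetraspanin Cd9 under receptors and kinases. Together the 16 lists hold 169 of the 542 members. Counts of lower and higher are to be read against the 22.1% and 10.1% of all members. Over all genes the shares were 12.7% and 13.9%, as given above. All 12 chromatin regulators in the stretch had ratios below 0, with a median of -0.92, while the 12 listed genes elsewhere in the genome had -0.44. Lower by 2-fold or more were 3, Kmt2e, the ATF family gene Creb5 with 215 and 455 reads, and the demethylase Kdm3a with 8571 and 17963. Ezh2, the catalytic subunit of the Polycomb complex that methylates histone H3, had 1530 and 2861 reads (log2 ratio -0.93). Nearest to 0 were Kdm5a, Ing3 and Trim24, with -0.47, -0.28 and -0.13.

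Of 7 genes on the cell cycle list, 5 were lower and 1 higher, with a median of -1.20. Cdca3, which helps entry into mitosis, had 431 and 1168 reads, and Mcm2, a subunit of the replicative helicase, 1705 and 4039. Foxm1, a transcription factor of the G2 and M phases, had 552 and 1249 reads, Cdk14, a cyclin-dependent kinase, 15083 and 32466, and Cdk6, its relative of the G1 phase, 1997 and 1733. Ccnd2 and Tigar are given above, and only Cdk6 and Tigar of the 7 were above 0. The higher gene is Tigar, which restrains glycolysis and is also on the glycolysis list. The cell cycle list was as low elsewhere: its 44 genes outside the stretch had a median of -1.27, with 24 lower and 3 higher.

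Among 10 DNA repair genes 4 were lower and none higher, with a median of -0.60 against -0.32 for 39 listed genes elsewhere. Fancd2, of the Fanconi anaemia pathway, had 419 and 1336 reads (3.25-fold lower), Rad52, a recombination protein, 522 and 1563 (3.05-fold) and Xpc, which senses damage for excision repair, 2096 and 4397 (2.14-fold). Rad51ap1 is the other lower gene. The oxidised base glycosylase Ogg1, the replication protein subunit Rpa3 and Setmar had log2 ratios of -0.18, 0.28 and 0.42.

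Genes of the extracellular matrix and of secreted ligands spread widely. Of 9 genes on the matrix list 6 were lower and 2 higher, with a median of -1.75, where the 22 listed genes elsewhere had a median of 0.73. The gene at that median is Tspan9, a tetraspanin rather than a matrix protein. Ptn, the growth factor pleiotrophin, had 102 and 1384 reads (13.8-fold lower), and Timp4, an inhibitor of matrix proteases, 27 and 192 (7.24-fold). Vwf, an endothelial clotting protein that also serves as a marker above, had 23 and 108. Against these, Mfap5, a microfibril protein, had 99820 and 14734 reads (6.65-fold higher) and Adamts9, a matrix protease, 3375 and 469 (7.07-fold). Tfpi2, an inhibitor of matrix-bound proteases, had 366 and 488.

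Of 10 secreted ligands 4 were higher and 2 lower, with a median of 0.45; the 14 listed ligands elsewhere had a median of 2.28, with 9 higher and 0 lower. Besides Cxcl12, the higher genes were guidance cues of the semaphorin family that lie near each other. Sema3c had 142027 and 18194 reads (7.67-fold higher), Sema3e 4105 and 765 (5.27-fold) and Sema3d 39851 and 12912 (3.03-fold), while Sema3a had 3481 and 2525 (log2 ratio 0.44). Npy, neuropeptide Y, was lower with 25 and 134 reads, beside Ptn. Wnt5b had 26 and 38 reads and Hgf, the ligand of the receptor Met, 823 and 1154.

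Receptors and kinases had a median of -0.39 over 21 members, near that of the stretch, but spread widely, from -7.06 to 6.05, with 10 lower and 3 higher. The 13 listed genes elsewhere had a median of -0.27, with 3 lower and 2 higher. Crhr2, Adcyap1r1 and the semaphorin receptor Plxnd1, with 656 and 4972 reads, were the lowest. At the top stood Oxtr, Met, with 10662 and 731 reads (14.3-fold higher), and the tetraspanin Cd9, with 30138 and 5323 (5.56-fold). Met and its ligand Hgf thus lay on opposite sides of 0, and Sema3c and Plxnd1 likewise.

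Ion channels and transporters were balanced, with 4 of 16 lower, 4 higher and a median of -0.05, against -0.22 for 8 listed genes elsewhere. Slc6a12, Aqp1 and Scnn1a, a subunit of the epithelial sodium channel with 81 and 357 reads, were lowest. Kcnd2, a potassium channel with 55 and 3 reads, Abcb1b, a drug efflux pump with 17658 and 2814 (6.16-fold higher), and Slc13a4, a sulfate transporter with 86 and 16, were highest. Abcb1a, a close relative of Abcb1b in a nearby row, had 5904 and 4833 reads, and the split of reads between them is uncertain.

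Of 16 genes on the smooth muscle and cytoskeleton list, 0 were lower by the rule and 4 were higher, with a median of 0.23. The 19 listed genes elsewhere had 0.62. The list also holds Chchd3 and Lsm8 (log2 ratios -0.29 and -0.28), which have other roles. Cav3, Tuba8, a tubulin with 146 and 28 reads, and Tes, a focal adhesion protein with 69298 and 29429, were highest, followed by Actg2. The 3 caveolin genes differed: Cav1 had 150324 and 117297 reads (log2 ratio 0.33), Cav2 8382 and 13240 (-0.69) and Cav3 1545 and 0. Tmsb10, which binds monomeric actin, was lowest with 51044 and 93368, and Chchd3, next after Cav2, had 7481 and 8970. The summed smooth muscle markers of the whole table were higher in the numerator library too, as given above, and their part in these ratios was not tested.

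**Figure D5:**
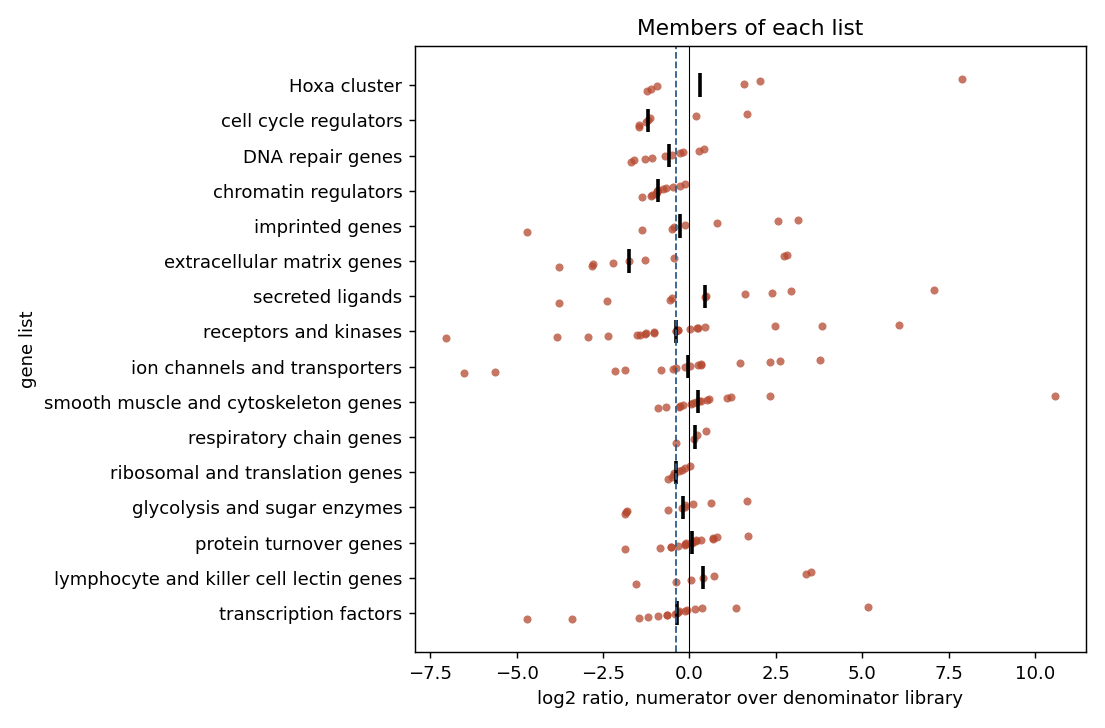
Log2 ratio of each member on the 16 lists (points), with the median of each list (black bar), the median of all members (dashed line) and 0 (thin line). Chromatin, cell cycle and matrix lists have medians of -0.92, -1.20 and -1.75, and the lists of smooth muscle, secreted ligands and lectins have medians above 0.

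Of the Hoxa genes, which pattern the uterus and the limbs, 6 listed members were measured, with 2 lower and 3 higher. Hoxa11, a factor of the developing and adult uterus, had 4802 and 11030 reads (2.34-fold lower), and Hoxa6 and Hoxa9 had 116 and 247 and 97 and 185. Hoxa13, at the end of the cluster, had 2922 and 698 (4.11-fold higher), Hoxa2, at its other end, 144 and 47 (3.01-fold), and Evx1 beside Hoxa13 236 and 0. The inner genes named here were thus low and the outer ones high. RGD1564419, the back-to-back neighbour of Hoxa11, was lower with 910 and 1939 reads.

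Transcription factors had a median of -0.35 over 17 members, with 4 lower and 2 higher, where 11 listed genes elsewhere had 0.54. Dlx5, a homeobox gene of bone and limb, had 4 and 127 reads (32.3-fold lower), Klf15, a metabolic regulator, 242 and 2502 (10.5-fold) and Mxd1, an antagonist of Myc, 817 and 2191 (2.73-fold). Foxp2 and Egr4, an immediate early gene with 35 and 13 reads, were higher, and Nfe2l3 followed with a log2 ratio of 0.36.

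Imprinted genes of the stretch, expressed from the copy of 1 parent in some tissues of mouse or human, had a median of -0.28 over 8 members, with 2 lower and 2 higher. The 8 listed genes elsewhere had a median of -1.15, with 5 lower and 2 higher. Dlx5 and Sgce, a sarcoglycan with 10669 and 27009 reads (2.58-fold lower), were the lower ones, and Mest, a hydrolase-like gene, had 91 and 128. Pon3, a lactonase with 301 and 33 reads (8.96-fold higher), and Ppp1r9a, a neurabin with 47 and 7, were the higher ones, while Pon2 had 33205 and 18848 (log2 ratio 0.79). Sgce and Ppp1r9a stand in adjacent rows and went opposite ways.

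Few genes on the lists of translation, respiration and protein turnover passed the rule. The 8 ribosomal and translation genes had a median of -0.38, equal to that of all members to 2 decimals, from Rpl32, Mrpl51 and Mrps33 at -0.61, -0.52 and -0.46 to Gars, Mrpl35 and Mrps25 at -0.22, -0.13 and 0.01, and 30 listed genes elsewhere had -0.32. None of the 4 respiratory chain genes passed the rule either: Ndufa5, Cycs, Ndufb2 and Ndufa4 had -0.40, 0.12, 0.22 and 0.48. Of 17 genes on the protein turnover list 1 was lower and 1 higher, with a median of 0.08, and 13 listed genes elsewhere had 0.63. The list also holds genes of vesicle traffic, among them Copg1, which stands at the median, Copg2, Rab7a and Sec13. Its median is therefore not one of protein turnover alone. Vhl, the substrate receptor that marks hypoxia-inducible factors for breakdown, had 2515 and 9064 reads (3.67-fold lower), and the interferon-induced Usp18 327 and 98 (3.28-fold higher). The next on either side were the ubiquitin ligase subunit Fbxl14 and the conjugating enzyme Ube2h, with -0.85 and -0.54, and the splicing factor Tra2a and Vamp1, with 0.79 and 0.68.

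Glycolysis and sugar enzymes had a median of -0.17 over 10 members, with 3 lower and 1 higher, and 15 listed genes elsewhere had -0.36. The glucose transporter Slc2a3 had 10643 and 38251 reads (3.66-fold lower), hexokinase Hk2 7101 and 24817 (3.56-fold) and enolase Eno2 46519 and 158642 (3.47-fold). Tigar was the higher gene, followed by the aldose reductase Akr1b1, with 19232 and 12353 reads, and Bpgm, with 2840 and 2609. Gapdh, often used as a reference gene, had 53333 and 60810.

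Lectin genes of lymphocytes and killer cells lie in the later rows of the stretch. Of 23 rows on this list 10 were at 0 and 7 were members, with a median of 0.40, 1 lower and 2 higher. The list also holds Lag3 and Ptpn6, which do not encode lectins, and Ptpn6, with 140 and 104 reads, stood at its median. Clec2d had 1851 and 175 reads (10.4-fold higher), Clec1a 57 and 4, and the oxidised lipoprotein receptor Olr1 22157 and 13303. Lag3 had 19 and 56, Clec12a 197 and 252 and Clec2g 615 and 588. Clec2d has near-identical relatives in the next rows, of which Clec2dl1 had 118 and 649 reads (5.6-fold lower) and Clec2d2 118 and 14 (8.28-fold higher), so the division of reads among them is uncertain. The macrophage marker Ptprc, which lymphocytes also carry, was listed at 0.

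In the authors' deposited table no gene passed correction: its smallest adjusted p was 0.999, for members as for the whole table. The smallest unadjusted p of a member in the authors' deposited table was 0.00626, for Aqp1. An unadjusted p under 0.05 in the authors' deposited table was listed for 28 members (5.17%), against 427 (3.81%) of all genes. The fold changes in the authors' deposited table are shrunken towards 0, and not by read number alone. Inmt and Cav3 each stand there at a log2 fold change of 0.43 and Tril at -0.76. Oxtr, with fewer reads than these, stands at 0.92. Its median log2 fold change was -0.34 over the members and 0.02 over the other genes, and 362 members lay below 0 there as well.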

How the data were processed

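RNA of 2 pooled cell samples was sequenced as single reads of 36 bp, per the labels' protocols. The authors used DESeq2, featureCounts, TopHat, SAMtools and FastQC and the builds rn4 and rn5, per the submitters' processing notes. Versions, settings, use of strand and the build of each step are not given there. The deposited table lists 17327 genes, 4106 of them at 0. Its mean is a linear signal, read counts divided by size factors and averaged over both libraries by the authors, per the file headers. The fold change and its standard error are deposited on a log2 scale. The statistic is a deposited score (fold change divided by error), and the p-values and adjusted p-values are the authors' own.

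Reads of each library were recovered from the deposited means. With size factors of 1.009 (numerator) and 0.991 (denominator), 9307 genes (70.4%) had 1 possible pair of whole read numbers. Of the other 3914, 3862 took the pair whose shrunken negative binomial fit met the deposited standard error, missing it by at most 3.44e-05, and 52 with deposited fold changes near 0 took the pair of nearest ratio. Among members 338 had 1 possible pair and 204 several. The recovery was tested on simulated data. One member, whose name had been turned into a date in the table, is counted but not named.

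Log2 ratios used a pseudocount of 1, and folds none. Calls needed a 2-fold ratio, a mean of at least 20 and an exact Clopper-Pearson 95% interval, from the share of reads, that excludes 1; for genes with 0 reads in a library the fold is a bound against a floor of 3 reads in it. Intervals and floors cover counting error only, since reads carried no molecular identifiers. With 1 library per group no test was run. Python 3.11.15, numpy 2.4.6, pandas 2.3.3, scipy 1.17.1, numba 0.67.0 and matplotlib 3.10.9 were used. The members, the 16 gene lists (563 symbols), the marker lists, the motifs and the rules were chosen with earlier results of these data known. By rule the text names 5 members and 5 outside genes at each edge, the 10 farthest above and below the median, the 5 with the highest mean, the 5 nearest the median with a mean of at least 1000, the 3 highest and 3 lowest of each list and every Hoxa member; others were chosen after their values were seen. A few genes that meet the rule are not reported here.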

Additional observations from a re-analysis of the deposited data

How the results depend on the processing

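No paired analysis was possible because each group has 1 library. Of 73 values recomputed under other settings, 55 kept their call or size, 18 moved and 0 changed direction. The median of the members was -0.45 when ratios were centred on genes outside the chromosome 4, 7 and 1 stretches, a shift of 0.08 for all genes that left the difference from other genes at -0.40. It was -0.28 as a mean, which a few large ratios raise. In the members with 1 possible pair of reads, chosen after seeing the data, it was -0.46, with a difference from other genes of -0.48. The best-read members, such as Col1a2, had several possible pairs and are left out of this set. The cause of the move was not tested. Members lying 4-fold or more above the median numbered 70 with no minimum, which adds genes with few reads. With the deposited fold changes, which are shrunken, 24 lay 4-fold or more above and 10 below. Shares of other genes under these settings are not given.

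The inner run that a fit of chromosome 4 alone sets apart has no stable place. It began at table row 11610 (Ephb6) and ended at row 11666 (RGD1559747). It ran from row 11820 (Kcmf1) to 11853 (LOC500227) with a minimum of 100 and also with the deposited fold changes, and from row 11450 (Tmem168) to 11476 (Fam3c) by least squares. With at least 10 genes per level it ran from row 11876 (Fbxo41) to 11886 (Add2), and 5 levels gave 2 separate runs, Ephb6 to RGD1559747 and Kcmf1 to row 11890 (Pcyox1, 55 genes at -0.64), with 87 genes at -0.17 between them and 267 at -0.39 after them. In the fit of chromosomes 3, 4 and 5 together, added after seeing the data, the low level ran from row 11281 (En2) to 12369 (Klhl42). The cause of these moves was not tested. Depth limits the members with means under 200, whose intervals are wide. How far animals or cultures vary is unknown with 1 library per group.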
